A study of Mus musculus with 31 samples.

Results

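The MHC class II genes of the mouse were followed in 31 BXD recombinant inbred strains. Members were the probes whose single gene name in the platform's probe table was H2-Aa, H2-Ab1, H2-Eb1, H2-Ea, H2-DMa or Cd74. All 6 genes were measured, of 15096 genes with such a probe, by 7 of the 23040 probes on the array. H2-Aa had 2 probes, numbered 6911 and 17950, and each other gene had 1. No member was set aside for a low value.

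BXD strains descend from C57BL/6J crossed with DBA/2J, and each, being inbred, carries the allele of either parent at each locus. The strains were those numbered BXD33-42 (7 arrays) and BXD1-32 (24 arrays), a division by strain number made for this comparison that no label states. For each strain, RNA of 3 male mice aged 8 weeks was pooled and hybridised once, in red, against a common C57BL/6J RNA in green, with no dye swap. Sample titles name kidney while source and tissue fields name whole brain for both channels, and ratios to a reference give no levels from which markers could settle the tissue. Values are log2 ratios, read as strain over C57BL/6J. Neither the base nor the direction of the logarithm is stated, so every "higher" and "lower" rests on that likely reading. Each strain has 1 array, so effects of strain and of array cannot be told apart, and p-values measure the spread between arrays.

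Class II molecules carry peptides from ingested material to the surface of antigen-presenting cells (dendritic cells, macrophages, B cells), where CD4+ T cells read them. H2-Aa and H2-Ab1 encode the alpha and beta chains of the I-A molecule, and H2-Ea and H2-Eb1 those of the I-E molecule. Cd74 encodes the invariant chain, which fills the groove of a new class II molecule and guides it to endosomes. There H2-DM, of which H2-DMa encodes the alpha chain, exchanges the remnant of the invariant chain for peptide. The parents differ at the H2 complex: C57BL/6J has the b haplotype, in which a deletion silences H2-Ea, and DBA/2J has the d haplotype, in which H2-Ea is transcribed. In bulk RNA of a tissue, fewer cells of a type and less RNA per cell cannot be told apart.

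The H2 genes lie close together on chromosome 17, whereas Cd74 lies elsewhere. Class II promoters share an X box, bound by the RFX complex, and a Y box, an inverted CCAAT element bound by NF-Y, and these recruit the transactivator Ciita. Over strains, H2-Aa and H2-Eb1, an I-A and an I-E gene, had an r of 0.0524 (n = 31), which does not show that they vary independently. Their proximal promoters are shown because they carry the common pair of elements. Both are C57BL/6J sequence from RefSeq (GRCm38.p6), from 250 bases before to 50 bases after the start of the gene, written 5′ to 3′ on the strand of the gene. H2-Aa is at chr17:34287774-34288073 on the minus strand and H2-Eb1 at chr17:34305617-34305916 on the plus strand. Capitals mark GCAAC, the core of the X box, and GATTGG, the core of the Y box.
H2-Aa: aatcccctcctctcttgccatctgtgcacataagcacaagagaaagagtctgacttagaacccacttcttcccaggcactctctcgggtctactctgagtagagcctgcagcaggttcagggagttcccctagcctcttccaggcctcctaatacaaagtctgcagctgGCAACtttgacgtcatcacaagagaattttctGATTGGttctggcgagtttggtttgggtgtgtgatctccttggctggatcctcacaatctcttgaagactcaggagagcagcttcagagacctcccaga
H2-Eb1: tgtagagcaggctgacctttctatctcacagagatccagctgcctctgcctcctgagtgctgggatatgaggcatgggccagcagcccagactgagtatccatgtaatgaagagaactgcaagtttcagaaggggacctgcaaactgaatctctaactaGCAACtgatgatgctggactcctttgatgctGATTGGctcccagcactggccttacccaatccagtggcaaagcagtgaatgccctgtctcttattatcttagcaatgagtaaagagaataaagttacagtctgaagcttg
GCAAC began 32 bases before GATTGG in H2-Aa and 31 bases before it in H2-Eb1, both on the strand of the gene. The motifs were chosen after these sequences were seen, and both strands were searched. GCAAC occurred in 35.2% of the 32851 promoters of the table and GATTGG in 16.1%. The pair in this order, 20 to 50 bases apart from start to start, occurred on the strand of the gene in 0.265%. Neither of the 2 H2-DMa windows in the table held the pair, which says only that these letters are not in those windows.

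Sorted values were identical in all 31 arrays, which shows that the authors had equalised the distributions. BXD15 and BXD38 stood apart: their mean correlation with the other arrays was 0.191 and 0.150, against 0.319 to 0.468 for the other 29. The first principal component over strains held 20.6% of the variance of all probes, and several class II probes followed it, as given below.

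H2-Aa, the I-A alpha chain gene, varied most among the 7 probes. By probe 17950 its log2 ratio ran from -1.61 in BXD38 to 0.09 in BXD33 in the set BXD33-42 (median -0.51), and from -1.79 in BXD15 to 2.38 in BXD12 in BXD1-32 (median 0.09). By probe 6911 it ran from -1.28 in BXD39 to 0.58 in BXD33 in BXD33-42 (median -0.46), and from -1.58 in BXD16 to 1.09 in BXD2 in BXD1-32 (median 0.20). Of all probes, 96.2% had a smaller SD over strains than probe 17950 (0.888) and 85.4% a smaller one than probe 6911 (0.615). The sets of strains overlapped for both probes.

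The 2 H2-Aa probes gave a similar order of strains. Their Pearson r was 0.566 and Spearman's rho 0.633 over 31 strains (permutation p = 8.90e-04 and 1.80e-04, 2-sided, 100000 resamples), and they differed in sign in 3 strains. Without BXD39 and BXD16, the strains farthest from the median of probe 6911, r was 0.513. The clearest disagreement was BXD15, at 0.71 by probe 6911 and -1.79 by probe 17950, and without BXD15 and BXD38 r was 0.755. Among 902 genes with 2 probes the median r was 0.0196, and 1.66% of them reached the r of H2-Aa. Within sets of strains r was 0.234 in BXD33-42, 0.449 in BXD1-14 and 0.305 in BXD15-32, where the boundary after BXD14 was drawn with earlier results of these data known. With the first principal component removed it was 0.283.

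The mean of both H2-Aa probes was above 0 in all 10 strains of BXD1-14, where it ran from 0.13 in BXD11 to 1.53 in BXD12. It was above 0 in 1 of 7 strains of BXD33-42 (BXD33, 0.33) and in 4 of 14 of BXD15-32. The lowest means were -1.39 in BXD16 and -1.09 in BXD39. The sets overlapped, since BXD20 had 0.47 and BXD28 had 0.39. This mean followed the first principal component with an r of 0.721 (n = 31 arrays, a description, since the component is built from the same arrays), against a median absolute r of 0.337 over all probes. What part that shared component had in the pattern of H2-Aa was not tested.

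**Figure D1:**
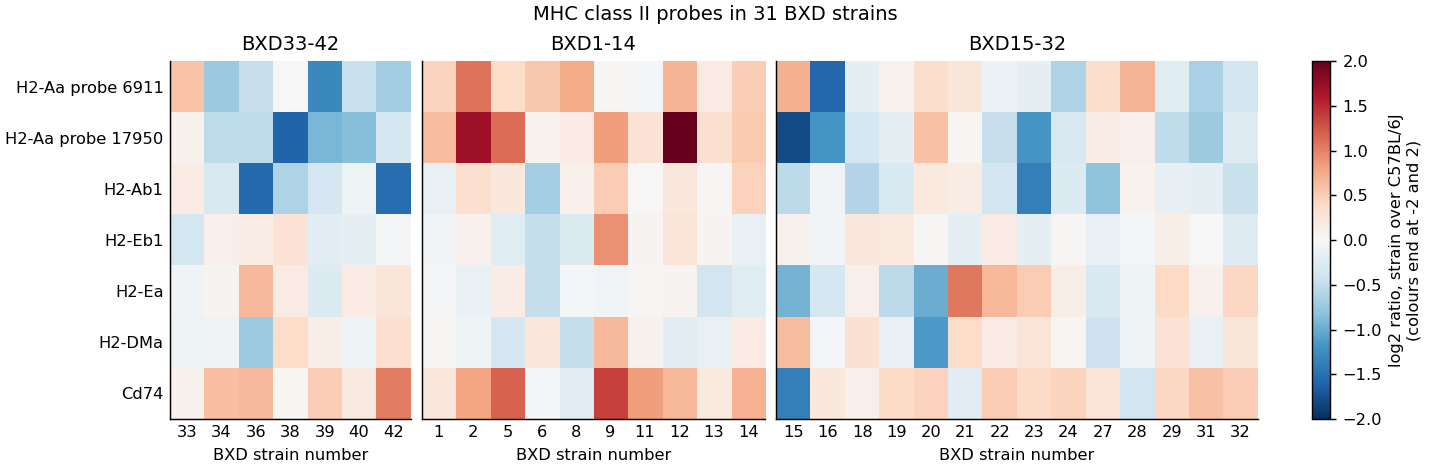
Log2 ratios of the 7 class II probes (rows) in 31 BXD strains (columns, by strain number) in the sets BXD33-42, BXD1-14 and BXD15-32; red is higher and blue lower than C57BL/6J, and colours end at -2 and 2. Both H2-Aa rows are mostly red in BXD1-14 and mostly blue in BXD33-42, while H2-Eb1 stays pale in nearly all strains.

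H2-Ab1, the I-A beta chain gene, was lowest in BXD36 (-1.56) and BXD42 (-1.53), both of BXD33-42, where the median was -0.33 and the highest value 0.16 in BXD33. In BXD1-32 it ran from -1.36 in BXD23 to 0.51 in BXD9, with a median of -0.10. It was below 0 in 6 of 7 strains of BXD33-42, in 2 of 10 of BXD1-14 and in 11 of 14 of BXD15-32. Its r with the first principal component was 0.640.

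H2-Aa and H2-Ab1, whose products pair in I-A, varied together over strains. Pearson r of H2-Ab1 with the H2-Aa mean was 0.525 (n = 31, permutation p = 0.00222, adjusted p = 0.0333 by Benjamini-Hochberg over the 15 pairs of class II genes) and rho was 0.655 (p = 1.30e-04, adjusted p = 0.00195). Without BXD2 and BXD12, the strains farthest from the median of H2-Aa, r was 0.473. Without BXD15 and BXD38 r was 0.507 and the call was lost (adjusted p = 0.0526). Within sets r was 0.206 in BXD33-42, 0.360 in BXD1-14 and 0.267 in BXD15-32. With the set means removed, a setting added after the data were seen, it was 0.259 (adjusted p = 0.560), and with the first principal component removed 0.119 (adjusted p = 0.653). The values within the sets were thus all smaller than in the pooled strains.

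Fits over all probes placed this pair against the rest of the array. Of 23038 probes, 19.7% passed with H2-Aa as the covariate (limma, adjusted p under 0.05), 9.52% rising with it and 10.2% falling. H2-Ab1 was 1 of the first group, with a slope of 0.41 ± 0.121 (SE, n = 31, limma adjusted p = 0.0147), and it was the only one of the 5 other class II probes to pass. With H2-Ab1 as the covariate, 15.0% of probes passed (8.25% rose and 6.76% fell), and H2-Aa probe 17950 passed (slope 0.91 ± 0.249, limma adjusted p = 0.0146), while probe 6911 did not (0.42 ± 0.193, adjusted p = 0.132). With this many probes moving with either gene, a place among them does not set the pair apart. With H2-Eb1, H2-Ea, H2-DMa or Cd74 as the covariate, 0 of the other class II probes passed by limma, and 0, 0, 0 and 1 had an unadjusted p under 0.05, while 0.0477%, 6.02%, 2.04% and 0.0% of all probes passed. Genes most like H2-Aa over the 31 strains were Psmd2 (r = 0.879), a proteasome subunit gene, Rasl2-9 (0.875), Cpq (0.873), Ccnq (0.862) and Pebp1 (0.858). All exceeded the r of 0.525 with H2-Ab1, but they were picked as the highest of all measured genes, so this does not rank the pair. Those most like H2-Ab1 were Hdgfl2 (0.814), Gngt2 (0.806), Slc38a10 (0.793), Mrm2 (0.782) and Zfp81 (0.780).

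**Figure D2:**
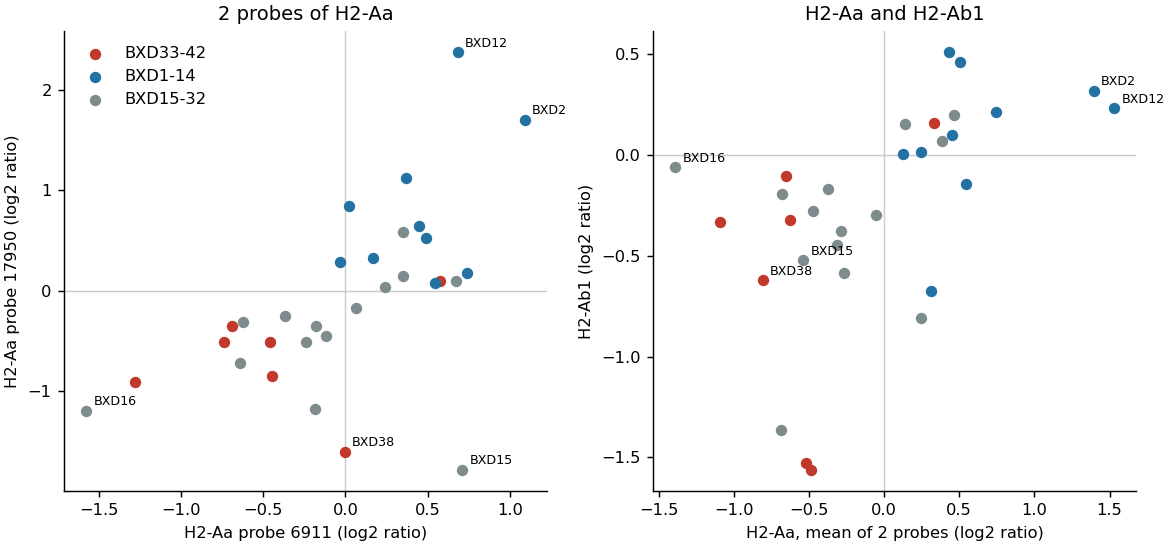
Each point is 1 strain; the left panel sets H2-Aa probe 17950 against probe 6911 and the right panel H2-Ab1 against the mean of both H2-Aa probes, all as log2 ratios. Red is BXD33-42, blue BXD1-14 and grey BXD15-32; the blue points lie toward the upper right in both panels, and BXD15 and BXD38 lie lowest in the left one.

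H2-Eb1, the I-E beta chain gene, hardly varied. It ran from -0.35 in BXD33 to 0.29 in BXD38 in BXD33-42 (median -0.03), and from -0.48 in BXD6 to 0.91 in BXD9 in BXD1-32 (median 0.01). Its SD over strains was 0.255, and 12.5% of probes had a smaller one. Apart from BXD9, all strains lay within -0.48 to 0.29. It shares the promoter elements printed above with H2-Aa, and its r with H2-Aa was 0.0524 (adjusted p = 0.836), and with H2-Ab1 it was 0.117 (adjusted p = 0.711).

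H2-Ea, the I-E alpha chain gene, is annotated in the C57BL/6J assembly as a transcribed pseudogene. It ran from -0.27 in BXD39 to 0.65 in BXD36 in BXD33-42 (median 0.16), and from -0.99 in BXD20 to 1.06 in BXD21 in BXD1-32 (median -0.02). The lowest strains were BXD20 and BXD15 (-0.94), and the highest BXD21 and BXD22 (0.66). Given the silent allele of C57BL/6J, a group of strains far above the reference could be looked for, but values were spread evenly around 0, with 16 strains above and 15 below. If the reference gives no H2-Ea transcript, a value below 0 cannot be read as less of that transcript. Whether this probe reads H2-Ea transcript was not tested, so its ranges and correlations describe the probe. H2-Ea and H2-Eb1, whose products pair in I-E, had an r of 0.00532 (adjusted p = 0.976). H2-Ea ran against the first principal component (r = -0.580), opposite to H2-Aa and H2-Ab1, and its r with these was -0.140 (adjusted p = 0.677) and -0.248 (adjusted p = 0.480). With the component removed both signs turned, to 0.493 with H2-Aa (adjusted p = 0.0870) and 0.196 with H2-Ab1 (adjusted p = 0.538).

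H2-DMa ran from -0.72 in BXD36 to 0.37 in BXD38 in BXD33-42 (median -0.08), and from -1.15 in BXD20 to 0.65 in BXD9 in BXD1-32 (median 0.03). Its SD of 0.372 was close to the median of 0.374 over all probes. BXD20 was thus the lowest strain for both H2-DMa and H2-Ea. The r of these genes was 0.228 (adjusted p = 0.480) and turned to -0.138 without BXD20 and BXD21. Without BXD15 and BXD38 it was 0.405 (adjusted p = 0.156), and with array weights the slope of H2-Ea on H2-DMa passed (0.56, limma adjusted p = 0.0475). H2-DMa also ran against the first principal component, with r = -0.450.

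Cd74, the invariant chain gene, was above 0 in 26 of 31 strains. It ran from 0.03 in BXD38 to 1.02 in BXD42 in BXD33-42 (median 0.49), and from -1.37 in BXD15 to 1.36 in BXD9 in BXD1-32 (median 0.40). The next lowest strain after BXD15 was BXD28 at -0.38. Its r with the first principal component was 0.0490, below that of 92.3% of probes in size. The invariant chain binds every class II molecule, and r of its gene with H2-Aa was 0.189 (adjusted p = 0.575), with H2-Ab1 0.0787 (adjusted p = 0.787), with H2-Eb1 0.289 (adjusted p = 0.480) and with H2-Ea 0.260 (adjusted p = 0.480). The r with H2-Eb1 was 0.00586 without BXD6 and BXD9, the strains farthest from the median of H2-Eb1, and 0.491 (adjusted p = 0.0526) without BXD15 and BXD38. The H2-Aa probes differed in their relation to Cd74: r with Cd74 was -0.260 for probe 6911 and 0.464 for probe 17950. BXD15, where Cd74 and probe 17950 were both at their lowest, was high by probe 6911.

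Of the 15 pairs of class II genes, only H2-Aa with H2-Ab1 passed. The other 14 pairs had r from -0.266 to 0.289, with a smallest adjusted p of 0.480 and a smallest unadjusted p of 0.111. These p-values do not show that the genes vary independently, since 31 strains leave a wide margin around each r.

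Genes most like the remaining members over strains, by Pearson r of gene means (n = 31), were others again. For H2-Eb1 they were 8430437L04Rik (0.773), Endou (0.716), Tmem51 (0.677), 1700008P02Rik (0.667) and Gucy2g (0.660). For H2-Ea they were Pak4 (0.746), Mtfr2 (0.745), Glmn (0.741), Mrps30 (0.739) and Tsx (0.738). For H2-DMa they were Ipo9 (0.764), Vmn1r46 (0.699), Znhit6 (0.695), Gm17014 (0.689) and 3100003L05Rik (0.683). For Cd74 they were Rnf216 (0.708), Mrps14 (0.701), Rnf130 (0.690), Ephb3 (0.685) and Slc29a1 (0.674). Class II genes were left out of these rankings. The largest r between 2 of them, 0.525 for H2-Aa with H2-Ab1, was below every r listed for the like genes. The like genes were picked as the highest r among all measured genes, so this order follows largely from the choice.

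**Figure D3:**
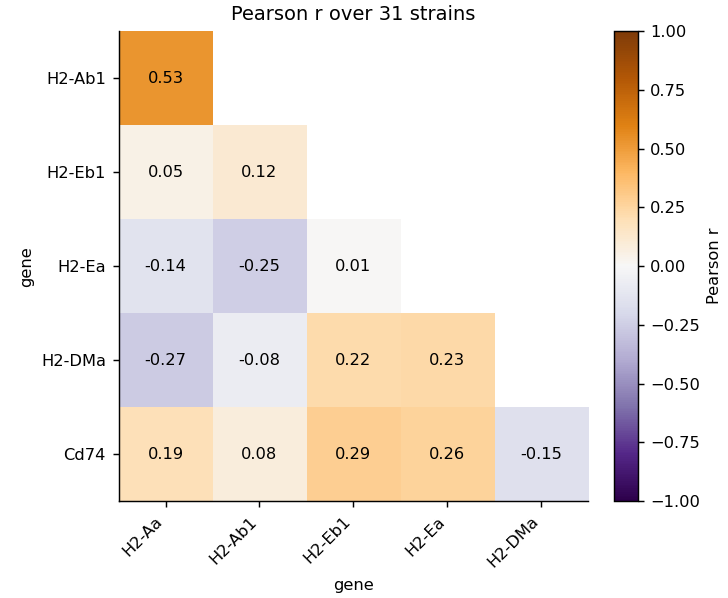
Pearson r over 31 strains for the 15 pairs of the 6 class II genes (rows and columns; H2-Aa is the mean of 2 probes), coloured from -1 to 1. The pair of H2-Aa and H2-Ab1 stands at 0.53, and the other 14 lie between -0.27 and 0.29.

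A gene with a strong local allele effect takes a pair of levels over recombinant inbred strains, and genes of 1 haplotype should divide the strains alike. For this reason the strains were put in order for each probe and cut where the sum of squares dropped most, leaving 5 or more strains to a side. The share removed was 66.1% for H2-Aa probe 6911, 63.9% for H2-Ab1, 58.0% for H2-Aa probe 17950, 56.4% for H2-DMa, 55.9% for H2-Ea, 53.1% for H2-Eb1 and 52.5% for Cd74. The median of all probes was 64.5%. Of all probes, 42.3% reached the share of H2-Aa probe 6911 and 90.2% that of Cd74. The class II probes thus had no more marked division than an average probe, and 6 of the 7 had a smaller share than the median probe.

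At the divisions themselves the gaps were narrow. For H2-Aa probe 6911, 13 strains lay from -1.58 to -0.12 and 18 from -0.03 to 1.09. For probe 17950, 16 strains lay from -1.79 to -0.17 and 15 from 0.03 to 2.38, the widest gap of the 7 probes at 0.21. For H2-Ab1, 8 strains lay from -1.56 to -0.52 and 23 from -0.45 to 0.51. For H2-Ea, 10 strains lay from -0.99 to -0.15 and 21 from -0.08 to 1.06. With the first principal component removed, the low side of H2-Ab1 held 5 strains from -1.18 to -0.88, and the other 26 lay from -0.46 to 0.52, with a gap of 0.41. These 5 were BXD6, BXD23, BXD27, BXD36 and BXD42. The share was then 71.0%, a value that 12.5% of probes reached.

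The strains on the low side were compared between probes. Both H2-Aa probes placed 28 of 31 strains on the same side, and all 13 low strains of probe 6911 were among the 16 of probe 17950. H2-Aa probe 17950 and H2-Ab1 placed 19 of 31 strains on the same side, with 6 of the 8 low strains of H2-Ab1 also low for that probe, for which 16 of 31 were low. H2-Aa probe 6911 and H2-Ab1 placed 18 of 31 on the same side, with 4 of these 8 low for both. For Cd74, 5 of the 8 were low. H2-Ea shared the side of 12 strains with H2-Aa probe 6911, 13 with probe 17950, 15 with H2-Eb1, 18 with H2-DMa and 19 with H2-Ab1. Between probes of different genes, the highest number was 20 strains, for Cd74 with H2-Ab1 and with H2-Eb1, although Cd74 is not part of the H2 complex. These counts are descriptions, and the H2 haplotype of each strain was not used here.

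**Figure D4:**
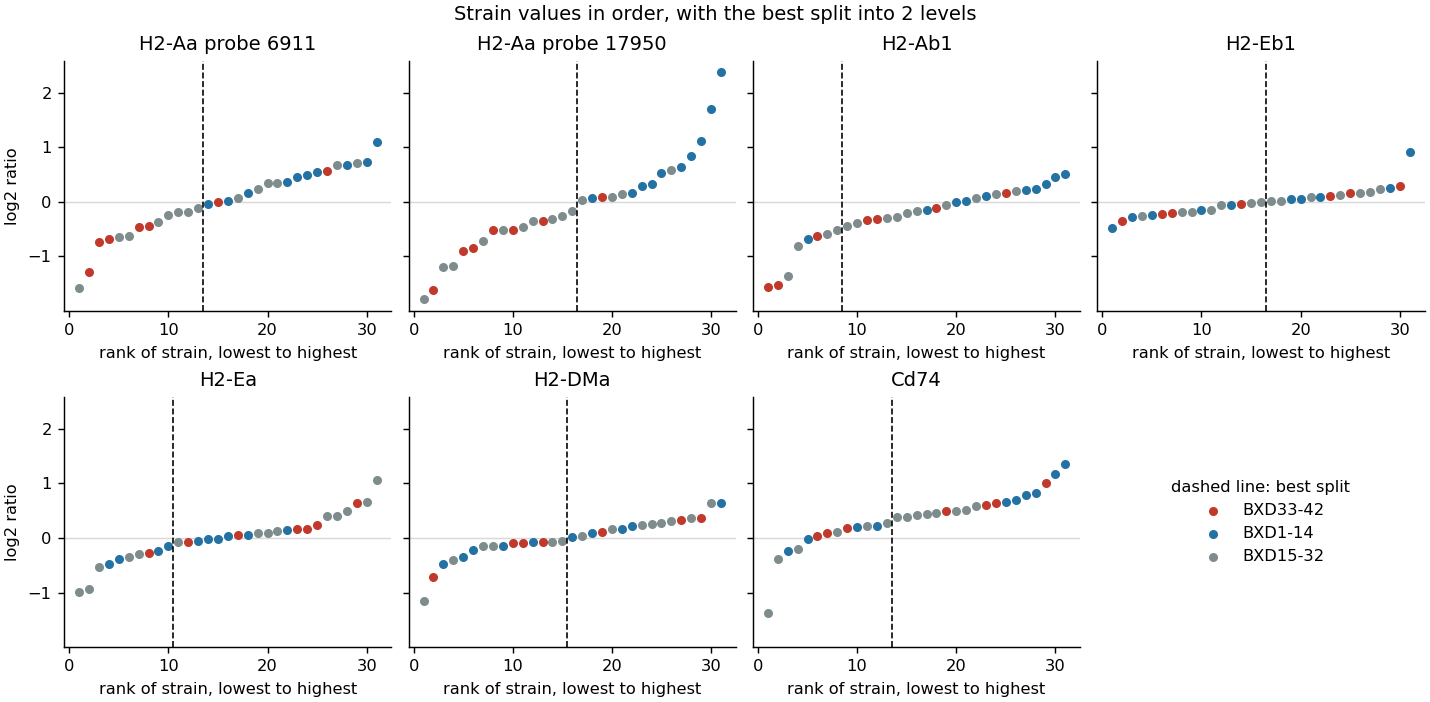
Log2 ratios of the 31 strains in rising order for each class II probe, with a dashed line at the division that removes most of the sum of squares; red is BXD33-42, blue BXD1-14 and grey BXD15-32. Values climb without a wide step at the line in any panel.

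**Figure D5:**
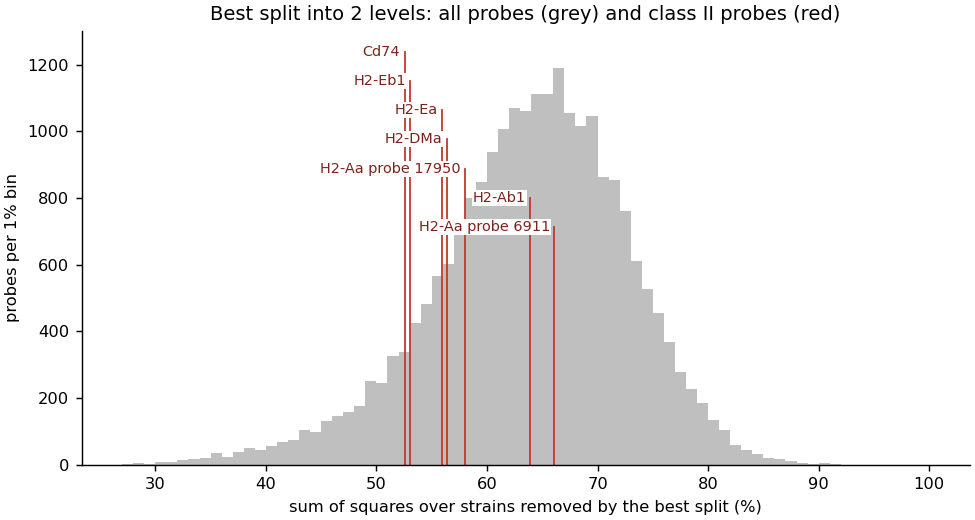
Percentage of each probe's sum of squares that the best division of strains into 2 levels removes (x axis), for all 23040 probes (grey, probes per 1% bin) and for the 7 class II probes (red lines). The class II probes lie from 52.5% to 66.1%, around and below the median of 64.5%.

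Neighbouring genes on chromosome 17 were examined for the same reason. The 58 measured genes within 25 places on either side of the H2 members, in the gene order of GRCm38.p6, had r with the nearest class II gene from -0.568 to 0.361 (n = 31). That nearest gene was H2-DMa, H2-Ea or H2-Ab1, so no neighbour was set against H2-Aa or H2-Eb1 here. The median absolute r was 0.183, and that of 14606 directly adjacent pairs of measured genes over all chromosomes was 0.186. The neighbours lie at larger distances than adjacent genes, so these medians are not a like-for-like comparison. Only 17 of the 58 were above 0. The largest in size were all negative and with H2-DMa: Brd2 (-0.568), a bromodomain gene next to it, Hnrnpm (-0.542) and Ndufa7 (-0.494). H2-Ob, a class II-like gene beside H2-Ab1, had an r of 0.358 with it, and was chosen after its value was seen. Tapbp, also among the 58, had an r of -0.193 with H2-DMa but 0.796 with H2-Aa. It too was chosen after its values were seen.

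Against C57BL/6J, Cd74 was higher and H2-Ab1 lower on average over the 31 strains. Cd74 had a mean log2 ratio of 0.36 ± 0.0881 (SE, n = 31, limma adjusted p = 8.40e-04, above 0 in 26 strains). H2-Ab1 had -0.26 ± 0.0912 (limma adjusted p = 0.0166, below 0 in 19 strains). The other 5 probes had means close to 0: -0.09 ± 0.151 for H2-Aa probe 17950 (adjusted p = 0.642), and for H2-Aa probe 6911, H2-Eb1, H2-Ea and H2-DMa means of -0.00, -0.00, -0.00 and 0.00 with SE of 0.106, 0.0484, 0.0762 and 0.0664. Thus 2 of 7 class II probes passed, while 57.5% of all probes did, so calls were not more frequent among them. The median of the 7 means was -0.00, against -0.02 over all probes. In BXD1-32 alone H2-Ab1 had -0.15 (adjusted p = 0.141), and with the mean of each spot position removed -0.14 (adjusted p = 0.164). Without a dye swap, what such a shared mean owes to dyes, reference RNA or strains cannot be told apart.

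BXD33-42 and BXD1-32 were compared next. H2-Aa averaged -0.66 ± 0.532 in BXD33-42 and 0.08 ± 0.908 in BXD1-32 by probe 17950 (SD, n = 7 and 24), a difference of -0.75 ± 0.342 (SE, limma adjusted p = 0.355). By probe 6911 it averaged -0.43 ± 0.589 in BXD33-42 and 0.12 ± 0.574 in BXD1-32, a difference of -0.56 ± 0.237 (limma adjusted p = 0.318). H2-Ab1 averaged -0.62 ± 0.679 in BXD33-42 and -0.15 ± 0.437 in BXD1-32, a difference of -0.46 ± 0.206 (limma adjusted p = 0.340). These 3 I-A probes had an unadjusted p under 0.05, as did 2904 of all 23040 probes. After the adjustment over all probes, 0 of the 7 class II probes passed. Of all probes 0.00868% passed. Differences for the other 4 probes ran from -0.04 for H2-Eb1 to 0.17 for H2-Ea, with adjusted p of 0.746 or more.

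Partners of the class II genes in loading and processing went in both directions against C57BL/6J. Of 13 probes for 12 genes, 4 were higher and 4 lower, with 27.2% and 30.3% of all probes. H2-Eb2, a further beta chain gene, was lower by both probes (-0.46 ± 0.0850, limma adjusted p = 2.39e-05, and -0.23). Lgmn, an endosomal protease gene, was higher at 0.46 ± 0.0613 (limma adjusted p = 1.62e-07). So were Marchf8 (0.43), whose product marks class II molecules for removal from the surface, and the cathepsin gene Ctsl (0.43). H2-DMb1, the partner of H2-DMa, was lower at -0.20 ± 0.0569 (limma adjusted p = 0.00322), and was named for its role after its value was seen. With H2-Aa as the covariate, 1 of these 13 probes rose and 0 fell, against 9.52% and 10.2% of all probes: Marchf8 (r = 0.490, limma adjusted p = 0.0417).

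Regulators of class II transcription had 4 of 14 probes higher and 6 lower, with 27.2% and 30.3% of all probes, so the higher share was near that of all probes. Creb1, an X box factor, was lower at -0.71 ± 0.0982 by 1 probe (limma adjusted p = 2.94e-07) and at -0.19 by the other. Rfxap, an RFX subunit gene, was higher at 0.46 ± 0.0684, as was Nfyb, an NF-Y subunit gene, at 0.31. Irf8 was lower at -0.25. Ciita, named for its role after its value was seen, was lower at -0.25 ± 0.105 (limma adjusted p = 0.0449, below 0 in 17 of 31 strains). Its r was 0.303 with H2-Aa (limma adjusted p = 0.211), 0.309 with H2-Ab1 (0.210) and 0.0794 with Cd74 (0.924). With H2-Aa as the covariate, 1 of these 14 probes rose and 0 fell, against 9.52% and 10.2% of all probes. That probe was Rfx5, another RFX subunit gene (r = 0.615, limma adjusted p = 0.00188), chosen after its values were seen. Rfx5 did not rise with H2-Ab1 (r = 0.137, limma adjusted p = 0.621). The other RFX subunit genes had a negative r with H2-Aa and were not called: Rfxank (-0.421, limma adjusted p = 0.0786) and Rfxap (-0.0991, 0.744).

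Class I presentation genes were higher in 9 of 16 probes and lower in 0 (27.2% and 30.3% of all probes), with a median of 0.20 against -0.02 over all probes. They were led by H2-Q10 (0.65 ± 0.0619), the chaperone genes Calr (0.59 ± 0.0942) and Pdia3 (0.34 ± 0.0623), and the immunoproteasome gene Psmb8 (0.33 ± 0.0481 by 1 probe). With H2-Aa as the covariate, 5 of the 16 rose and 1 fell, against 9.52% and 10.2% of all probes. The 5 were Tapbp (r = 0.796), H2-D1 (0.739), Calr (0.660), Pdia3 (0.624) and Canx (0.514), and Erap1 fell (-0.561). Of these, Tapbp, which encodes tapasin, H2-D1, Calr and Pdia3 had a larger r with H2-Aa than H2-Ab1 did, a difference that was not tested. Spotted probes of class I genes may not tell near-identical copies apart.

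Markers of the cells that carry class II molecules gave no common direction. Dendritic cell and macrophage markers had 5 of 21 probes higher and 4 lower against C57BL/6J, with 27.2% and 30.3% of all probes. Among them were Cx3cr1 (-0.54), Lyz2 (0.48 by 1 probe, while the other was not called at 0.07), C1qb (0.40) and Itgax (-0.30). With H2-Aa as the covariate, 1 of the 21 rose (Cd14, r = 0.506) and 3 fell (Cd163, -0.563, Fcer1g, -0.562, and C1qb, -0.554), against 9.52% and 10.2% of all probes. Unlike C1qb, C1qc (0.443) and C1qa (0.324) had a positive r with H2-Aa, though neither was called. Itgax, a dendritic cell marker, had an r of 0.445 with H2-Aa (limma adjusted p = 0.0586), while Flt3 (-0.185) and Zbtb46 (-0.103) of the same list went the other way. B cell markers had 3 of 20 probes higher and 8 lower (27.2% and 30.3% of all probes), led by Ighm (-0.46 and -0.31 by its 2 lowest probes), Cd79a (-0.37) and Igkc (0.36). These 20 probes stood for 12 genes, and Ighm was counted many times. Its probes disagreed: probe 4019 was higher (0.15, limma adjusted p = 0.0134), and probes 4021, 8338 and 20335 were not called. With H2-Aa, 3 rose (Fcer2a, 0.641, Cd22, 0.586, and Cd79a, 0.533) and 1 probe of Ighm fell (-0.478), of 20 probes and against the same 9.52% and 10.2%. Of B cell markers not called, Ms4a1 (-0.344) and Cd79b (-0.145) had a negative r and Blnk (0.415) a positive one. The median slope of the list on H2-Aa was -0.055, against -0.008 over all probes. Genes of T cell contact had 0 of 10 probes higher and 4 lower (27.2% and 30.3% of all probes): Icos (-0.71), Cd86 (-0.52), Cd4 (-0.49) and Cd28 (-0.30). With H2-Aa, 1 of these 10 rose (Icos, r = 0.487) and 1 fell (Cd80, -0.471), near the 9.52% and 10.2% of all probes. With Cd74 as the covariate, 0 of all 23039 probes passed (0.0%), by limma, and 2335 had an unadjusted p under 0.05. The marker genes named for their relation to H2-Aa were chosen after their values were seen, and the part of these cells in the class II values was not tested.

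Of 11 probes for kidney markers, 6 were higher than C57BL/6J and 0 lower, against 27.2% and 30.3% of all probes. They were led by Cdh16 (0.99), Lrp2 (0.92 by 1 of 2 probes), Kap (0.55) and Slc22a8 (0.47). With H2-Aa as the covariate, 4 of the 11 rose and 0 fell, against 9.52% and 10.2% of all probes. They were Slc22a8 (r = 0.662), Slc22a6 (0.588), Lrp2 (0.545 by 1 probe, while the other was not called at 0.374) and Kap (0.457). Of 14 probes for brain markers, 4 were higher and 7 lower. Among them were Syn1 (-0.57), Camk2a (0.35), Snap25 (0.34) and Gfap (-0.27 by 1 probe, while the other was not called at -0.007). With H2-Aa, 1 of the 14 rose and 1 fell. The brain counts lie near or below the same shares of all probes, except that 7 of 14 were lower than C57BL/6J. The part of tissue makeup in the class II values was not tested.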

How the data were processed

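RNA of 31 BXD strains was measured on 2-colour spotted arrays. The deposited log2 ratios came from R 2.0.0 and limma, per the submitters' processing notes. Background correction and the steps of normalization are not given in the sources used here, and base and direction of the log2 ratio are not stated per the labels. Sorted values were identical in all arrays. Signal over background is unknown, and precision is limited by how many arrays there are.

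Probes were named from the platform table, and list genes were updated through gene numbers to GRCm38.p6 symbols. Linear models were fitted to all probes (R 4.3.3, limma 3.58.1, functions lmFit and eBayes, 2-sided, Benjamini-Hochberg, threshold 0.05): the mean ratio against 0, BXD33-42 against BXD1-32, and the slope of each probe on a class II gene mean. The test against 0 leaves out the spread of the reference. Pairs of genes were tested with 100000 permutations of strains in Python 3.11.15. Divisions into 2 levels were described without a test. The fits were tested on simulated data.

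Named genes were all class II probes, the 5 non-member genes most like each member, up to 4 called genes of largest mean in each list, and the 3 chromosome 17 neighbours of largest r. Exceptions are stated. Members and lists were chosen with earlier results of these data known.

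Alternatives were array centring, robust eBayes, array weights, a filter on SD, treat at 0.2, BXD1-32 alone, Spearman correlation, the probe of largest SD, at least 3 strains a side, removal of the mean of each of 480 spot positions or of the first principal component, and leaving out BXD15 and BXD38.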

Additional observations from a re-analysis of the deposited data

Results flagged for a closer look

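H2-DMa in BXD33-42 had 1 strain far from the other 6: BXD36 at -0.72, with the others from -0.09 to 0.37. The gap was 0.573 of the whole range, above Dixon's critical value for 7 samples. Chance gives such a gap in about 1 group in 20, and 7 probes were examined.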

How the results depend on the processing

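Of 183 values recomputed under alternatives, 157 kept their direction and their side of the threshold or stayed within the spread. Part of that count was fixed in advance. All arrays share the same median, so array centring could not change any difference or slope. Robust eBayes and the filter on SD left each estimate as it was and could move only its p-value. For the mean ratio, 2 class II probes passed; 1 passed in BXD1-32 alone and 0 by treat at 0.2, where 1 had an unadjusted p under 0.05. With spot positions removed 3 passed, all higher: Cd74, H2-DMa at 0.15 (adjusted p = 0.0421) and H2-Eb1, which turned to 0.12 (adjusted p = 0.0425). Of the 15 pairs, 1 passed, and 0 passed with the first principal component removed, with set means removed, or without BXD15 and BXD38, where 1, 1 and 3 had an unadjusted p under 0.05. Of associations between class II probes, 2 passed, 3 with array weights and 1 with the first component removed, that of H2-Aa probe 17950 with Cd74 (adjusted p = 0.0457). The largest division share was 66.1%, for H2-Aa probe 6911. With the first component removed that probe had 61.9%, and the largest share was 71.0%, for H2-Ab1. The causes were not tested. For BXD33-42 against BXD1-32, 0 class II probes passed under every alternative run. Over all probes, counts past the threshold moved more: between the sets 2, but 116 with array weights, 1 without BXD15 and BXD38, 0 with spot positions removed (2250 unadjusted) and 0 with the first component removed (2301 unadjusted), and for the mean ratio 13238 against 4791 by treat. Associations as reported numbered 4543 with H2-Aa, 3458 with H2-Ab1, 11 with H2-Eb1, 1388 with H2-Ea, 470 with H2-DMa and 0 with Cd74 (2335 unadjusted). With array weights they numbered 6200 with H2-Aa, 5870 with H2-Ab1, 3 with H2-Eb1, 4862 with H2-Ea and 2121 with H2-DMa. Without BXD15 and BXD38 they numbered 2950 with H2-Ea and 127 with H2-DMa. With spot positions removed they numbered 0 with H2-Eb1 (2004 unadjusted), 152 with H2-DMa and 104 with Cd74. With the first component removed they numbered 1087 with H2-Aa, 0 with H2-Ab1 (2803 unadjusted), 24 with H2-Eb1, 0 with H2-Ea (2092 unadjusted), 13 with H2-DMa and 165 with Cd74. No paired analysis was possible because the sets share no strain number.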
